A study of Mus musculus with 14 samples.

Results

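Flt3-positive cells were selected on their Flt3 counts: a cell of plates 352W and 353W with at least 500 counts was a member when it held 1 or more Flt3 counts, and it was set against cells of the same plate that held 0. By this rule 176 of the 344 kept cells of the 2 plates were Flt3-positive and 168 were Flt3-negative, out of 716 kept cells on all 4 plates of the series. The cells came from mouse bone marrow, were depleted of lineage-positive cells and are labelled haematopoietic stem cells (HSCs, CD150+CD48-). They were profiled by MARS-Seq, a plate-based single-cell method that counts unique molecular identifiers (UMIs). The study compared Phf19 KO mice with floxed controls, Phf19 being a partner of Polycomb repressive complex 2, which trimethylates lysine 27 of histone H3. The labels give the plates no genotype. KO and WT are prefixes of the cell names, with 96 wells of each per plate, and whether WT cells are the floxed controls is not stated. Strain, age, sex and the Cre driver are not given in the labels either. KO and WT cells filled separate ranges of wells on every plate, so genotype and well position cannot be told apart. The labels name no animals behind the plates or prefixes. The p-values given here therefore rest on differences between sums of cells alone, which may be technical.

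Flt3 encodes a class III receptor tyrosine kinase that binds Flt3 ligand and signals through STAT5, phosphoinositide 3-kinase and Ras. In mouse marrow the most primitive stem cells carry little or no Flt3 on their surface. It appears on multipotent progenitors, and cells with much Flt3 are primed towards lymphoid and granulocyte-monocyte fates and have lost most megakaryocyte-erythroid potential. A sort for CD150 without CD48 is meant to collect cells before this step.

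Flt3 itself (ENSMUSG00000042817) divided the 4 plates. Over the kept cells it reached 367 CPM (counts scaled to the total of the summed cells) in KO and 368 CPM in WT cells of plate 352W, and 154 CPM in KO and 170 CPM in WT cells of plate 353W. On plates 350W and 351W it was at 7.50 and 19.8 CPM, and 4 of 187 and 9 of 185 kept cells there held a count (2.14% and 4.86%), at median totals of 2688 and 3531 counts. Those 2 plates carry the same sort label, and their shares of cells with Flt3 lay far below those of 352W and 353W.

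Flt3-positive cells made up 48 of 74 KO cells (64.9%, exact Clopper-Pearson 95% interval 52.9 to 75.6%) and 59 of 95 WT cells (62.1%, 51.6 to 71.9%) on plate 352W. On plate 353W they made up 29 of 80 KO cells (36.3%, 25.8 to 47.8%) and 40 of 95 WT cells (42.1%, 32.0 to 52.7%). The intervals of KO and WT cells overlapped on both plates, and these intervals cover counting error only. The KO minus WT difference was 2.76 percentage points on 352W and -5.86 points on 353W, a mean of -1.55 with an SD of 6.09 over the 2 plates. With 1 set of wells per prefix and plate the shares were not tested. The sign depended on the class limit: counting cells with 2 or more Flt3 counts, the differences were -7.25 points on 352W and -5.66 points on 353W (SD 1.13), and after thinning to 1000 counts they were -0.50 and -1.90 points. After thinning each cell to 1500 counts the shares were 42.0% in KO and 40.4% in WT cells of 352W, and 17.2% in KO and 19.3% in WT cells of 353W. Fewer KO wells reached 500 counts, with 22 KO wells and 1 WT well left out on 352W and 16 KO wells and 1 WT well on 353W. Over all kept cells of the 2 plates Flt3 differed between KO and WT by a log2 fold change of -0.06 (SE 0.192, edgeR quasi-likelihood adjusted p = 1.0), so a difference within this error was not detectable.

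**Figure D1:**
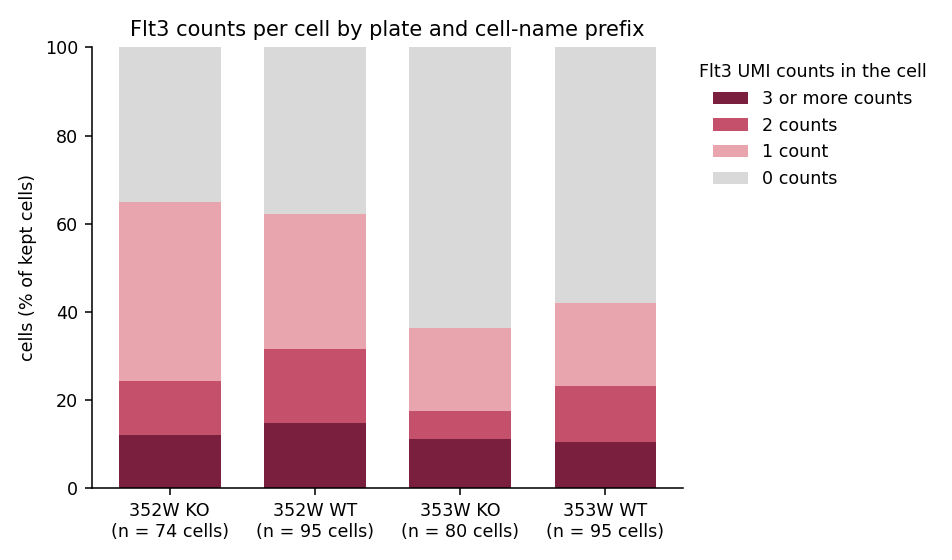
Kept cells of plates 352W and 353W with 3 or more, 2, 1 and 0 Flt3 UMI counts, as a percentage of the cells of each plate and cell-name prefix. Coloured bars reach 64.9% in KO and 62.1% in WT cells of 352W, and 36.3% in KO and 42.1% in WT cells of 353W.

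Most members rested on a single molecule. Of the 176 Flt3-positive cells, 92 (52.3%) had 1 Flt3 count, 42 had 2 and 42 had 3 or more, and the highest count was 8. The line between the classes therefore ran between cells with 1 count and cells with 0. Flt3-positive cells were also the deeper ones, with a median of 3056 counts against 2166.5 in Flt3-negative KO cells of 352W, and of 3165 against 2681 in WT cells of that plate. On 353W the medians were 5568 against 3636 in KO cells and 5761.5 against 4129 in WT cells. When the cells of a plate were split into 3 groups by total counts, low to high, the Flt3-positive share was 49.1, 63.6 and 77.2% on 352W and 24.1, 41.4 and 52.5% on 353W. The summed Flt3 level did not climb with it, at 427, 408 and 323 CPM on 352W and 174, 151 and 167 CPM on 353W.

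**Figure D2:**
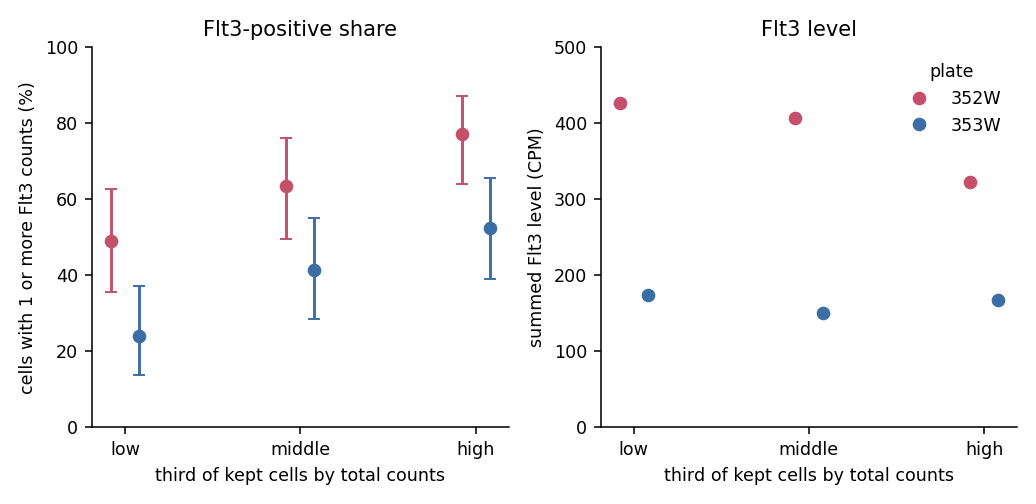
Left, share of Flt3-positive cells in the low, middle and high group of kept cells by total counts, with exact 95% intervals for counting error. Right, summed Flt3 level of the same groups in CPM. The share is higher in deeper groups on both plates (49.1 to 77.2% on 352W, 24.1 to 52.5% on 353W), while the level is not.

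Suppose that every cell of a plate, KO and WT together, held Flt3 at the same proportion of its counts. A Poisson expectation from the cells' totals would then give 64.7% positive cells on 352W, where 63.3% were observed. On 353W it would give 53.4%, where 39.4% were observed. Cells with 3 or more Flt3 counts numbered 23 on 352W against 22.2 expected, and 19 on 353W against 11.7 expected. On 352W the observed values of both prefixes together lay close to this expectation. On 353W Flt3 was spread less evenly over cells than the expectation gives. The common level comes from the same Flt3 counts, so only their spread over cells is compared. With a proportion for each prefix, 352W gave 61.3% expected against 64.9% observed in KO and 67.4% against 62.1% in WT cells. The 353W values were 48.9% against 36.3% in KO and 57.0% against 42.1% in WT cells. These gaps were not tested.

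The label of multipotent progenitor-like cells was checked against other markers. Slamf1, which encodes the sorted CD150, had 0 counts in all 176 Flt3-positive cells and 1 in the Flt3-negative cells. Cd48, which encodes the antigen the sort excludes, stood at 253 CPM in Flt3-positive and 150 CPM in Flt3-negative KO cells of 352W, and at 214 CPM in Flt3-positive and 159 CPM in Flt3-negative WT cells. On 353W it was at 29.1 and 28.5 CPM in Flt3-positive and Flt3-negative KO cells, and at 61.0 CPM in Flt3-positive and 34.0 CPM in Flt3-negative WT cells, against 0 to 5 CPM on the other plates. Vwf, which encodes von Willebrand factor and is used by megakaryocytes, had 5 counts or fewer in each class of a plate and prefix, and 478 and 532 CPM in KO and WT cells of 350W. Il7r, the interleukin-7 receptor of committed lymphoid progenitors, had 1 count in Flt3-positive cells and 2 in Flt3-negative cells. Both classes thus held Cd48 and almost no Slamf1 or Il7r, and since no listed progenitor gene that was tested passed between them, the members are called by the Flt3 rule.

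To ask which other genes accompany Flt3, cells were thinned to 1500 counts outside Flt3 and summed per plate, prefix and class, with Flt3 left out of the test. Of 1100 genes tested over 8 sums, 1 (0.0909%) passed an adjusted p of 0.05 in edgeR's quasi-likelihood test, and DESeq2 called 0 (9 at an unadjusted p under 0.05). At an unadjusted p under 0.05, 25 genes were higher in Flt3-positive cells (2.27% of those tested) and 37 were lower (3.36%). With all counts of the cells, 4157 genes could be tested and 0 passed, with 62 higher (1.49%) and 101 lower (2.43%) at an unadjusted p under 0.05. In 22 to 35 cells of each class per set, matched for total counts, 0 of 2543 genes passed and 105 had an unadjusted p under 0.05. Single genes other than Ighm are thus given below as values that did not pass.

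The gene that passed was Ighm, the heavy chain of immunoglobulin M, lower in Flt3-positive cells (log2 fold change -0.61, SE 0.110, edgeR adjusted p = 4.72e-04, lower in 4 of 4 sets). It stood at 4220 CPM in Flt3-positive and 6061 CPM in Flt3-negative KO cells of 352W, and at 6211 CPM in Flt3-positive and 8838 CPM in Flt3-negative WT cells. On 353W it was at 413 CPM in Flt3-positive and 537 CPM in Flt3-negative KO cells, and at 545 CPM in Flt3-positive and 2507 CPM in Flt3-negative WT cells. A few wells carried much of it: 526 of the 664 Ighm counts in Flt3-negative WT cells of 353W lay in 1 well. Across both plates 8 wells held over 100 immunoglobulin counts, 4 of them Flt3-positive, and together they held 29 counts of the plasma cell gene Mzb1, against 3 in all other kept cells. Without these wells the log2 fold change was -0.25 (adjusted p = 0.945), and with another random thinning it was -0.69 (adjusted p = 0.333). Ighm was detected in 97.9 to 100% of cells in each class and prefix of 352W, with medians of 10.5 and 13 counts in Flt3-positive KO and WT cells, and of 11 and 13 in Flt3-negative ones. Igha, the heavy chain of immunoglobulin A, was counted on 352W alone and had a log2 fold change of 0.81 (SE 0.195, adjusted p = 0.0501), with 349 of the 486 counts in Flt3-positive KO cells in 1 well.

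Among myeloid genes, Mpo (ENSMUSG00000009350), the granule enzyme myeloperoxidase and an early sign of granulocyte-monocyte priming, had the lowest p. Mpo reached 194 CPM in Flt3-positive and 75.2 CPM in Flt3-negative KO cells of 352W, and 270 CPM in Flt3-positive and 74.9 CPM in Flt3-negative WT cells. On 353W it reached 262 CPM in Flt3-positive and 143 CPM in Flt3-negative KO cells and 248 CPM in Flt3-positive and 140 CPM in Flt3-negative WT cells. Every Flt3-positive set lay above every Flt3-negative set, and Mpo had 0 counts on plates 350W and 351W. Mpo had too few counts to be tested after thinning. On all counts the log2 fold change was 1.08 (SE 0.237, adjusted p = 0.231), and in depth-matched cells 0.53 (SE 0.286, adjusted p = 0.991). By number of Flt3 counts, Mpo was at 75, 138 and 345 CPM in cells of 352W with 0, 1 and 2 or more, and at 141, 229 and 273 CPM on 353W. Thinned to 1500 counts, it was seen in 13.6% of Flt3-positive cells (95% interval 7.63 to 21.8%) and 9.09% of Flt3-negative cells (3.02 to 20.0%) of 352W, and in 18.8% (10.4 to 30.1%) of Flt3-positive cells and 13 of 100 Flt3-negative cells (7.11 to 21.2%) on 353W. These intervals overlap. Without thinning the shares were 20.6% of Flt3-positive and 11.3% of Flt3-negative cells on 352W, and 49.3% of Flt3-positive and 27.4% of Flt3-negative cells on 353W.

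Part of the Mpo came from the deepest cell of each plate. A Flt3-positive WT cell of 352W with 9870 counts and 3 of Flt3 held 21 Mpo, 20 Prtn3, 14 Ctsg and 9 Elane counts, the last 3 encoding neutrophil granule proteases. A Flt3-positive KO cell of 353W with 15126 counts and 5 of Flt3 held 15 Mpo, 18 Prtn3, 10 Ctsg and 0 Elane counts. Without these 2 cells Mpo was at 179 CPM in Flt3-positive WT cells of 352W and at 191 CPM in Flt3-positive KO cells of 353W, still above the Flt3-negative cells of the same sets at 74.9 and 143 CPM. The log2 fold change was then 0.84 (SE 0.236, adjusted p = 0.994). Cells with 2 or more Flt3 counts then held Mpo at 239 CPM on 352W, against 138 CPM in cells with 1, and at 224 CPM on 353W, against 229 CPM, so on 353W no step above 1 Flt3 count remained. Ctsg had 6 and 23 counts in Flt3-positive KO and WT cells of 352W and 0 in Flt3-negative ones, but 13 and 13 against 9 and 15 on 353W. Prtn3 differed by 0.28 on the log2 scale (all counts, SE 0.225, adjusted p = 0.998), with Flt3-negative WT cells of 353W at 298 CPM above Flt3-positive ones at 224 CPM. Cebpa, the transcription factor that drives granulocyte commitment, had 5 and 9 counts in Flt3-positive KO and WT cells of 352W against 11 and 7 in Flt3-negative ones, and 3 and 2 against 2 and 0 on 353W.

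The summed level of the 28 myeloid genes present in the tables, of 31 listed, was higher in Flt3-positive cells of 4 of 4 sets, at 1109 against 812 CPM in KO and 1295 against 908 CPM in WT cells of 352W, and at 1430 against 946 CPM in KO and 1220 against 1148 CPM in WT cells of 353W. On the other plates it was at 505 to 853 CPM. Of its 7 members tested on all counts, 1 was higher at an unadjusted p under 0.05 and 0 were lower, and the median log2 fold change was 0.28 against -0.01 over all genes tested. The 2 Mpo-rich cells are included in these sums.

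No stem cell gene passed the test. After thinning most tested genes of the list were lower in Flt3-positive cells, but in depth-matched cells the list had no common direction. Hlf, a transcription factor of long-term stem cells, was at 123 CPM in Flt3-positive and 241 CPM in Flt3-negative KO cells of 352W, and at 195 CPM in Flt3-positive and 234 CPM in Flt3-negative WT cells. On 353W it was at 122 CPM in Flt3-positive and 209 CPM in Flt3-negative KO cells, and at 191 CPM in Flt3-positive and 249 CPM in Flt3-negative WT cells. Hlf was lower in Flt3-positive cells of all 4 sets, yet the fold change did not pass (thinned log2 -0.63, SE 0.334, adjusted p = 0.807). It was -0.56 on all counts and -0.14 in depth-matched cells. By Flt3 count it was at 237, 175 and 153 CPM in cells of 352W with 0, 1 and 2 or more, and at 232, 191 and 141 CPM on 353W. Thinned to 1500 counts, Hlf was seen in 19.4% of Flt3-positive and 29.1% of Flt3-negative cells of 352W, but in 24.6% of Flt3-positive and 22.0% of Flt3-negative cells of 353W, so the share of cells did not follow the level there.

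Ly6a, which encodes the stem cell antigen Sca-1, was at 194 CPM in Flt3-positive and 105 CPM in Flt3-negative KO cells of 352W and at 119 CPM in Flt3-positive and 412 CPM in Flt3-negative WT cells. On 353W Ly6a was at 122 CPM in Flt3-positive and 219 CPM in Flt3-negative KO cells, and at 118 CPM in Flt3-positive and 196 CPM in Flt3-negative WT cells. It was lower in 3 of 4 sets (log2 fold change on all counts -0.82, SE 0.281, adjusted p = 0.905), and 22 of its 44 counts in Flt3-negative WT cells of 352W lay in 1 cell. The log2 fold change of Ly6a was -0.64 after thinning and -0.54 in depth-matched cells. Ifitm1, an interferon-inducible membrane protein abundant in stem cells, was lower in 3 of 4 sets (thinned log2 -0.61, SE 0.193, adjusted p = 0.276). Ifitm1 differed by -0.43 on all counts and by -0.35 in depth-matched cells. Pdzk1ip1, a small membrane protein enriched in stem cells, was lower in 4 of 4 sets (all counts, log2 -0.49, SE 0.209, adjusted p = 0.998). Pdzk1ip1 differed by -0.30 after thinning and by -0.43 in depth-matched cells. Mecom, a transcription factor required by long-term stem cells, changed direction between the prefixes of 352W. There it was at 58.3 and 150 CPM in Flt3-positive and Flt3-negative KO cells but at 128 and 56.2 CPM in Flt3-positive and Flt3-negative WT cells. Kit, the stem cell factor receptor and the only other class III receptor kinase with enough counts to test, differed by -0.39 after thinning (SE 0.333, adjusted p = 0.959). Kit differed by -0.15 on all counts and by -0.03 in depth-matched cells, and was higher in 2 sets and lower in 2.

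Of 35 listed stem cell genes, 16 were tested on all counts, where 4 were lower at an unadjusted p under 0.05 (Hlf, Ly6a, Pdzk1ip1 and Ifitm1) and 0 were higher, with a median log2 fold change of -0.21. Over all 4157 genes tested, 2.43% were lower and 1.49% higher at that limit, and the median was -0.01. In depth-matched cells 13 stem cell genes were tested, 0 had an unadjusted p under 0.05 in either direction, and their median was -0.03. The summed level was 3890 CPM in Flt3-positive and 3264 CPM in Flt3-negative KO cells of 352W, and 3653 CPM in Flt3-positive and 4400 CPM in Flt3-negative WT cells. On 353W it was 3541 CPM in Flt3-positive and 4085 CPM in Flt3-negative KO cells and 3229 CPM in Flt3-positive and 4312 CPM in Flt3-negative WT cells. Flt3-positive cells were lower in 3 of 4 sets, and both classes lay under the 5948 to 6605 CPM of plates 350W and 351W.

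**Figure D3:**
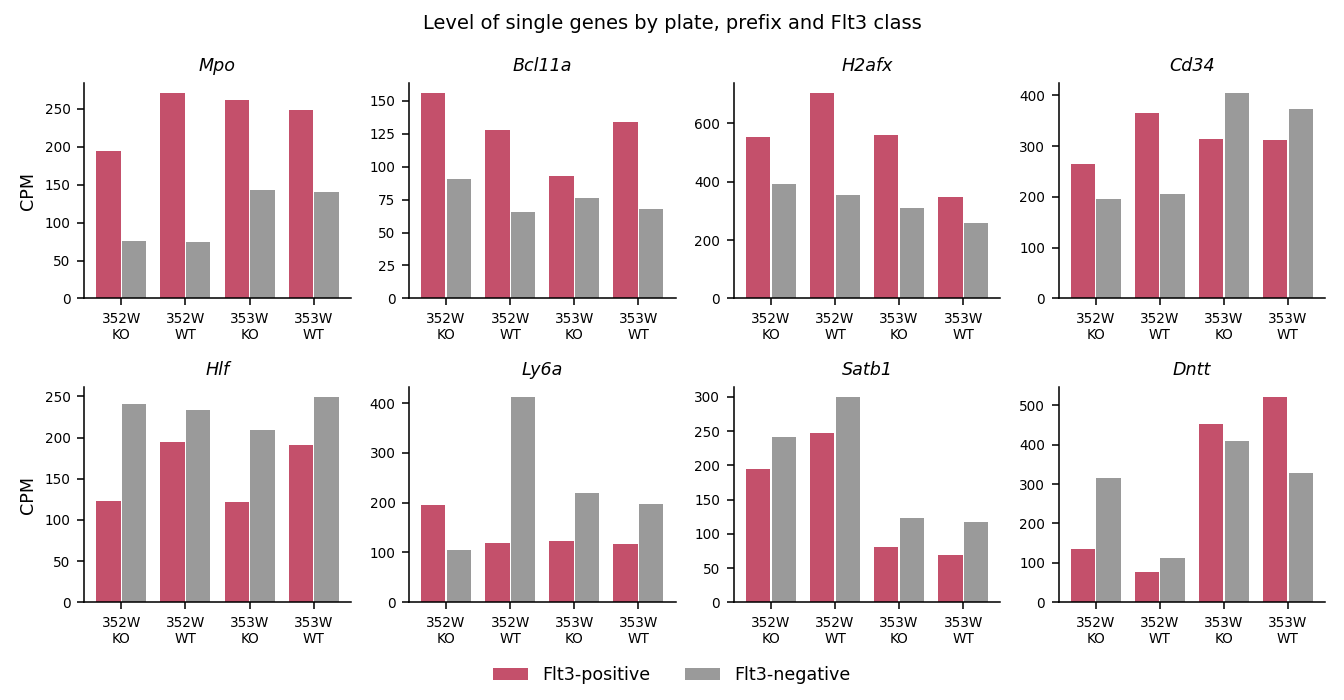
Level of 8 genes in Flt3-positive and Flt3-negative cells of each plate and prefix, in CPM over the summed counts, 1 bar per sum of cells. Mpo, Bcl11a and H2afx are higher and Hlf and Satb1 lower in Flt3-positive cells of 4 of 4 sets, Ly6a is lower in 3, and Cd34 and Dntt change direction between plates. None of the 8 passed the adjusted threshold.

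Lymphoid genes gave no common direction. Dntt, the terminal transferase of early lymphoid progenitors, was at 136 CPM in Flt3-positive and 316 CPM in Flt3-negative KO cells of 352W and at 75.9 CPM in Flt3-positive and 112 CPM in Flt3-negative WT cells. On 353W Dntt was at 454 CPM in Flt3-positive and 409 CPM in Flt3-negative KO cells, and at 521 CPM in Flt3-positive and 329 CPM in Flt3-negative WT cells. It was thus lower in Flt3-positive cells of 352W and higher in those of 353W (log2 fold change on all counts 0.05, SE 0.226, adjusted p = 0.998), and both classes exceeded the 10 to 27 CPM of the other plates. Satb1, a chromatin organiser that promotes lymphoid priming, was lower in Flt3-positive cells of 4 of 4 sets, at 194 against 241 CPM in KO and 247 against 300 CPM in WT cells of 352W, and at 81.4 against 124 CPM in KO and 69.1 against 117 CPM in WT cells of 353W. Its log2 fold change was -0.12 after thinning (SE 0.378, adjusted p = 0.991) and -0.48 on all counts (SE 0.230, adjusted p = 0.998). Bcl11a, a transcription factor needed for B cell development, was higher in 4 of 4 sets, at 156 against 90.2 CPM in KO and 128 against 65.5 CPM in WT cells of 352W, and at 93.0 against 76.1 CPM in KO and 134 against 68.0 CPM in WT cells of 353W. Bcl11a had a log2 fold change of 0.74 on all counts (SE 0.294, adjusted p = 0.998) and 0.84 in depth-matched cells (SE 0.332, adjusted p = 0.991). Zfp521, a zinc finger protein that restrains early B cell genes, was lower in 4 of 4 sets (-0.98, SE 0.341, adjusted p = 0.905). Of 31 listed early lymphoid genes 18 were tested on all counts, with 1 higher and 1 lower at an unadjusted p under 0.05 and a median log2 fold change of -0.05. Their summed level was lower in Flt3-positive cells of 352W (2224 against 2557 CPM in KO, 2377 against 2856 CPM in WT) and higher in those of 353W (2867 against 2687 CPM in KO, 3286 against 3044 CPM in WT).

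None of the listed multipotent progenitor genes tested, which do not include Flt3, passed between the classes. Cd34, a surface mucin gained as stem cells become progenitors, was at 266 CPM in Flt3-positive and 196 CPM in Flt3-negative KO cells of 352W and at 365 CPM in Flt3-positive and 206 CPM in Flt3-negative WT cells, whereas on 353W it was at 314 CPM in Flt3-positive and 404 CPM in Flt3-negative KO cells, and at 313 CPM in Flt3-positive and 374 CPM in Flt3-negative WT cells. The direction thus changed between plates (all counts, log2 0.03, SE 0.197, adjusted p = 0.998), and both classes exceeded the 22 to 42 CPM of the other plates. Cd48, given above, was higher in Flt3-positive cells of 4 of 4 sets (0.55, SE 0.299, adjusted p = 0.998). Of 22 listed genes 18 were tested, 0 were higher and 1 was lower at an unadjusted p under 0.05, and the median was 0.04. The list summed to 3128 to 3876 CPM in Flt3-positive sets and 2996 to 3599 CPM in Flt3-negative sets, against 1394 to 1939 CPM on the other plates.

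**Figure D4:**
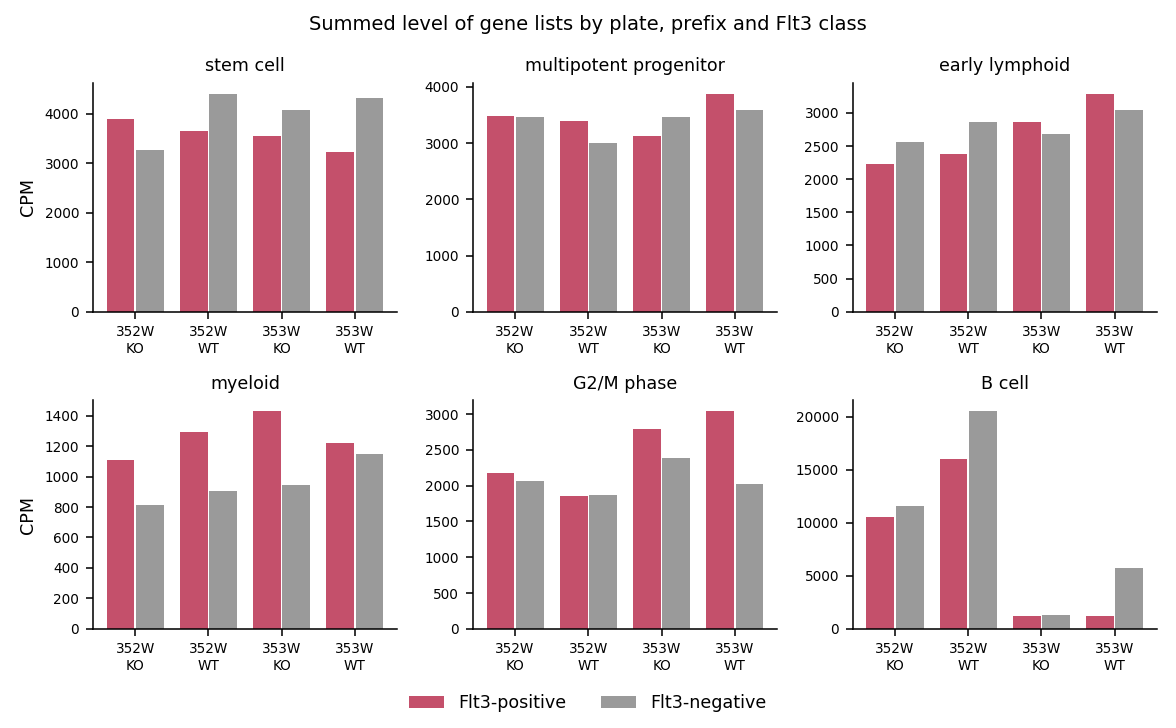
Summed level of 6 gene lists in Flt3-positive and Flt3-negative cells of each plate and prefix, in CPM. Myeloid genes are higher in Flt3-positive cells of 4 of 4 sets (1109 to 1430 against 812 to 1148 CPM) and stem cell genes lower in 3. B cell genes are lower in 4 of 4 sets and also differ between plates. In Flt3-negative WT cells of 353W, 1363 of 1680 immunoglobulin counts lay in 1 well.

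None of the genes used by dividing cells passed. Most listed ones were higher in Flt3-positive cells on all counts, without a clear direction in depth-matched cells. H2afx, the histone variant H2AX that is made most in cycling cells, was at 551 CPM in Flt3-positive and 391 CPM in Flt3-negative KO cells of 352W and at 702 CPM in Flt3-positive and 356 CPM in Flt3-negative WT cells. On 353W H2afx was at 558 CPM in Flt3-positive and 309 CPM in Flt3-negative KO cells, and at 346 CPM in Flt3-positive and 257 CPM in Flt3-negative WT cells. It was higher in 4 of 4 sets (thinned log2 0.87, SE 0.281, adjusted p = 0.276) but differed by 0.12 in depth-matched cells (SE 0.181, adjusted p = 0.991). Mki67, a marker of cells outside the resting state, was higher in 4 of 4 sets on all counts (1.13, SE 0.445, adjusted p = 0.998) from few counts, 9 and 24 in Flt3-positive KO and WT cells of 352W against 1 and 2 in Flt3-negative ones, and 13 and 14 against 11 and 9 on 353W. Dut, which keeps uracil out of new DNA, had a thinned log2 fold change of 0.96 (SE 0.354, adjusted p = 0.509), but of 0.41 on all counts and 0.19 in depth-matched cells. Hells, a chromatin remodeller of replicating cells, was lower in Flt3-positive cells of 4 of 4 sets (all counts, -0.64, SE 0.262, adjusted p = 0.998). Of 26 listed S phase genes 15 were tested on all counts, 10 higher and 5 lower, with a median of 0.13. At an unadjusted p under 0.05, 0 were higher and 1 was lower. In depth-matched cells 4 were higher and 3 lower, and the summed level was higher in 3 of 4 sets. Of 30 listed G2/M genes 13 were tested on all counts, 10 higher and 3 lower. Their median log2 fold change was 0.39, against -0.01 over all genes tested. Of the 13 G2/M genes 1 was higher at an unadjusted p under 0.05. In depth-matched cells 4 were higher and 5 lower, and the median was -0.17. The summed G2/M level was 2178 against 2060 CPM in KO and 1850 against 1863 CPM in WT cells of 352W. On 353W it was 2797 against 2387 CPM in KO and 3042 against 2028 CPM in WT cells, Flt3-positive cells first. The 22 H2afx counts of the deepest cell of 353W, the Mpo-rich KO cell described above, are part of the Flt3-positive KO value of that plate.

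Other genes of low p were not called either. Lower in Flt3-positive cells were Sec11c, a subunit of the signal peptidase (thinned log2 -1.08, SE 0.349, adjusted p = 0.276) and Fermt3, an integrin activator of blood cells (-1.08, SE 0.331, adjusted p = 0.276). Higher were Cct5, a subunit of the chaperonin that folds actin and tubulin (1.12, SE 0.358, adjusted p = 0.276), Fmn1, a formin (0.41, SE 0.142, adjusted p = 0.434), and Sod1, superoxide dismutase (0.43, SE 0.157, adjusted p = 0.509). In depth-matched cells the log2 fold changes were -1.13 for Sec11c, -0.35 for Fermt3, 0.62 for Cct5, 0.20 for Fmn1 and 0.15 for Sod1. No gene of the intracellular Flt3 pathway passed. Of 49 listed signalling genes 15 were tested on all counts, 0 were higher and 1 was lower at an unadjusted p under 0.05, and the median was -0.08. The lower member was Cbl, a ubiquitin ligase that removes active receptors (-0.86, SE 0.390, adjusted p = 0.998).

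Markers of other cell types were summed in the same sets. Erythroid genes were at 612 to 977 CPM in Flt3-positive and 556 to 942 CPM in Flt3-negative sets, and megakaryocyte genes at 185 to 308 and 159 to 352 CPM, with Gp1bb, Gp5 and Treml1 at 0. T and NK cell genes were at 176 to 266 and 150 to 279 CPM with Cd3e at 0. Mast cell and basophil genes were at 292 and 346 CPM in Flt3-positive KO and WT cells of 352W against 75.2 and 37.5 CPM in Flt3-negative ones, but at 64.0 and 52.9 against 52.3 and 68.0 CPM on 353W. Cpa3, the mast cell carboxypeptidase, led that list, and 22 of its 34 counts in Flt3-positive WT cells of 352W lay in 1 cell. Its part in the myeloid values was not tested.

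The second question was whether KO and WT differ within Flt3-positive cells. Bach2 (ENSMUSG00000040270), a transcriptional repressor that acts in lymphocyte development, was lower in KO cells on both plates. It had 0 counts in KO against 44 in WT cells of 352W and 9 in KO against 65 in WT cells of 353W. That was 0 CPM in KO against 209 CPM in WT cells of 352W and 52.3 CPM in KO against 264 CPM in WT cells of 353W (log2 fold change -3.17, SE 0.472, edgeR adjusted p = 2.00e-08). Nim1k, a serine/threonine kinase related to AMPK, was lower as well, with 23 counts in KO against 77 in WT cells of 352W and 22 in KO against 94 in WT cells of 353W (-1.45, SE 0.289, adjusted p = 3.32e-04). These were 2 of 11 genes called among 4563 tested (0.241%), 3 higher and 8 lower in KO cells, over 4 sums with the plate as a block. With 1 residual degree of freedom the spread of a gene is taken largely from other genes. DESeq2 called 0 (8 at an unadjusted p under 0.05), and edgeR without the plate block called 0 (34 at an unadjusted p under 0.05).

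Of the other 9, Txndc12, an endoplasmic reticulum oxidoreductase, was higher in KO cells, with 22 counts in KO against 7 in WT cells of 352W and 23 in KO against 5 in WT cells of 353W (2.35, SE 0.506, adjusted p = 0.00194). Rpl30, a ribosomal protein whose reads can be shared with near-identical copies, was higher in KO cells, with 132 counts in KO against 105 in WT cells of 352W and 227 in KO against 165 in WT cells of 353W (0.87, SE 0.187, adjusted p = 0.00194). Ptpre, a receptor-type tyrosine phosphatase, was lower in KO cells, with 9 counts in KO against 47 in WT cells of 352W and 18 in KO against 61 in WT cells of 353W (-1.54, SE 0.368, adjusted p = 0.0127). The mitochondrial genes mt-Rnr1 and mt-Nd1 had log2 fold changes of -0.81 (adjusted p = 8.95e-08) and -0.59 (adjusted p = 0.0376). The gap in mt-Rnr1 lay on 353W, where it was at 651 CPM in KO and 2115 CPM in WT cells, and not on 352W, where it was at 11702 CPM in KO and 12141 CPM in WT cells. Of 13 mitochondrial genes tested, 12 were lower in KO Flt3-positive cells (median log2 -0.40, against -0.02 over all genes tested). In KO Flt3-negative cells 13 of these genes were lower (median -0.32, against -0.01 over all genes tested). Their sum on 353W was 9455 CPM in KO and 17825 CPM in WT Flt3-positive cells, and 10410 and 16676 CPM in Flt3-negative ones. On 352W it was 60143 and 58211 CPM in Flt3-positive, and 63362 and 58553 CPM in Flt3-negative KO and WT cells. Igha was higher and Iglv1, Iglc1 and 2010309G21Rik were lower on 352W, where 304 of the 344 Iglv1 counts in WT cells lay in 1 well. Without wells of over 100 immunoglobulin counts 2 genes were called, Bach2 (-3.15, adjusted p = 0.00187) and Nim1k (-1.44, adjusted p = 0.0195), while Txndc12 and Rpl30 missed with adjusted p of 0.0525 and 0.0543 and Ptpre with 0.108. Nim1k was not called after thinning to 1500 counts (-1.002, adjusted p = 0.727), and in cells with 2 or more Flt3 counts neither Nim1k (-0.66, adjusted p = 0.993) nor Bach2 (-3.15, adjusted p = 0.343) was called.

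The same test in Flt3-negative cells called 0 of 3699 genes, with 89 at an unadjusted p under 0.05. Bach2 nevertheless had a log2 fold change of -3.48 there (SE 0.487, adjusted p = 0.312), from 1 count in KO against 16 in WT cells of 352W and 5 in KO against 72 in WT cells of 353W. It was also low in KO cells of plates 350W and 351W, at 32 and 29 CPM against 375 and 279 CPM in WT cells. Nim1k differed by -0.45 (SE 0.348, adjusted p = 0.999) and Rpl30 by 0.74 (SE 0.219, adjusted p = 0.999) in Flt3-negative cells. Ptpre differed by 0.05 (SE 0.552, adjusted p = 0.999) in Flt3-negative cells. The test of whether the KO difference itself differs between the classes called 0 of 1682 genes in edgeR and in DESeq2, with 64 and 8 at an unadjusted p under 0.05. Its estimate was 0.10 for Bach2 (SE 0.996), -3.01 for Ptpre (SE 0.866, adjusted p = 0.377) and -0.16 for Nim1k (SE 0.709). The fold changes given above for each class are on all counts, so these estimates are not their differences. The KO difference was therefore not shown to differ between Flt3-positive and Flt3-negative cells. No stem cell, multipotent progenitor or myeloid gene was called between KO and WT Flt3-positive cells, of 16, 19 and 7 tested, and Mpo differed by -0.20 (SE 0.280). Phf19 had 1 count in KO and 1 in WT Flt3-positive cells, too few to check the prefixes.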

How the data were processed

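Single cells of plates 350W to 353W were profiled by MARS-Seq, and the authors deposited 1 table of UMI counts per gene and cell for each plate. The submitters' processing notes name FastQC and the genome build GRCm38.p4; no source used here gives the aligner or counter. Symbols were matched to 25714 of 25832 gene IDs. Cells with 500 or more counts were kept (509 to 15126 counts), and no doublet caller was run. Genotype was read from cell-name prefixes. CPM values are a gene's summed counts scaled to the total counts of that set of cells. Cells were thinned at random to 1500 counts outside Flt3 (172 Flt3-positive and 155 Flt3-negative cells, with 4 and 13 too shallow), or matched within 0.25 log2 units of total counts, and summed per plate, prefix and class. Sums were fitted with edgeR 4.0.16 in R 4.3.3 (quasi-likelihood test, expression filter, TMM, plate and prefix as a block, Benjamini-Hochberg adjusted p of 0.05); DESeq2 1.42.0 was an alternative. The SE of a log2 fold change is its size divided by the square root of F. Exact intervals came from scipy 1.17.1. The fits were also run on simulated counts with the same spread for every gene. These do not show how the fits behave where a single well holds most counts of a gene.

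The members and gene lists were chosen with earlier results of these data known. Named genes are up to 5 tested members of highest mean CPM of each list and a fixed set of stem, lymphoid and myeloid genes. Between the Flt3 classes they are also the genes of lowest p in each direction, as fewer than 10 were called. Between KO and WT they are all called genes, filled up by lowest p to 5 in a direction. Ly6a, Bcl11a, Zfp521, Cbl, Mki67, Elane, Mzb1 and Cpa3 lie outside this rule and were named after their values were seen. Alternatives cover depth, class definition, filter, block, tool, plates and wells rich in immunoglobulin or Mpo counts.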

Additional observations from a re-analysis of the deposited data

Results flagged for a closer look

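KO wells of plate 352W that did not reach 500 counts, and so were in no comparison, held 8 Flt3 counts in 6 of 22 wells. Over their 7270 counts this was 1100 CPM (exact Clopper-Pearson 95% interval 475 to 2167 CPM, counting error only), against 367 CPM (291 to 456 CPM) in the kept KO cells of that plate. The left-out wells of the other sets held 0 Flt3 counts, among 479 counts in WT wells of 352W, 4187 in KO wells of 353W and 354 in WT wells of 353W. With 3 counts taken as the limit of a count of 0, these totals allow up to 6263, 717 and 8475 CPM.

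The KO minus WT difference in the share of Flt3-positive cells had opposite signs on the 2 plates, at 2.76 percentage points on 352W and -5.86 points on 353W. The difference between the plates was not tested, and the opposite signs did not hold with 2 or more Flt3 counts (-7.25 and -5.66 points) or after thinning to 1000 counts (-0.50 and -1.90 points).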

How the results depend on the processing

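The 1 gene called between Flt3-positive and Flt3-negative cells depended on the processing. The count was 0 when cells were thinned to 1000 or 3000 counts, not thinned, matched for depth, thinned with another seed, classed after thinning, classed by 2 or more Flt3 counts, or kept from 2000 counts. It was also 0 with DESeq2, with no filter, with no replicate block, in KO blocks alone and without immunoglobulin-rich wells, and in 4 alternatives chosen after seeing the data (all counts or matched cells without those wells, and thinned or all counts without the Mpo-richest well of each plate). It was 2 with sums per plate, 3 in WT blocks alone, and 0 to 2 on leaving out a plate. The 11 genes called between KO and WT Flt3-positive cells became 0 with DESeq2, 0 with no replicate block, 2 without immunoglobulin-rich wells and 3 with 2 or more Flt3 counts. The 0 genes called for the difference of the KO effect between classes became 3, all immunoglobulin genes or their copies, on all counts. Of 42 alternatives of the 4 main results 16 left the result unchanged, and of 265 for single genes 202 did. Ighm lost its call in 18 of 22 (log2 -1.26 to -0.14). Directions turned for Hlf (0.072, thinned to 3000 counts), Satb1 (0.051 with no replicate block, 0.27 without 353W), H2afx (-0.64, classed after thinning) and Igha between KO and WT (-0.066 without immunoglobulin-rich wells, -0.65 with 2 or more Flt3 counts). The mean KO minus WT difference in share, -1.55 points, ranged from -6.46 (2 or more Flt3 counts) to 2.76 points (352W alone). The causes were not tested.

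Depth sets the limits: 92 of 176 members rest on 1 Flt3 count, 0 counts do not show that a cell lacks Flt3, and 1100 genes had enough counts after thinning. Plates 352W and 353W give 1 set of wells per prefix each.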
